A study of Mus musculus with 90 samples.

Results

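The atrial muscle genes described here are 5 mouse genes: Myl7 (Entrez 17898), Myl4 (17896), Sln (66402), Nppa (230899) and Nppb (18158). They were taken by their Entrez identifiers from a table of 20414 genes, and they were chosen by their FPKM in these libraries, in which 1 heart library stood apart. Their levels in heart and across tissues are therefore given as descriptions, with no test. RNA was sequenced from 15 tissues of wild-type female C57BL/6 mice, aged 10 weeks by the labels. The study's methods name the substrain C57BL/6J and give another age. The mice carried no transgene or treatment, and they were sorted by a vaginal smear into estrus and diestrus. Each tissue had 3 libraries in estrus and 3 in diestrus, 90 in all, from 3 mice per phase. The sources used here do not say which part of the heart was taken, nor how far the aorta was cut from it. Abundance was given as FPKM, fragments per kilobase of transcript and sequencing depth, so that genes of different length can be compared.

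Atrial heart muscle is built with its own myosin light chains. Myl7 encodes the regulatory light chain of atrial myosin and Myl4 the essential light chain, where ventricular muscle uses Myl2 and Myl3. Sln encodes sarcolipin, a small membrane peptide that inhibits the calcium pump SERCA and is found in atria and in skeletal muscle, while its relative phospholamban (Pln) does this in the ventricle. Nppa and Nppb encode the precursors of the atrial and brain natriuretic peptides, hormones of heart muscle that make the kidney excrete salt and water and relax blood vessels. Nppa is made mostly in the atria of the adult heart, and Nppb is made in both chambers and rises with wall stretch.

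Depth was close to even where the members were high. It had to be approximated from the steps of low FPKM values, since no counts were used, and came to 11.2 to 12.2M reads in the hearts and 11.8 to 12.4M in the aortas. Over all tissues 89 libraries had 9.1 to 18.1M reads, and BAT (brown adipose tissue) estrus replicate 3 had 0.0787M with 12048 genes at 0, so a 0 in that library says little. Besides heart estrus replicate 3, aorta estrus replicate 1 and aorta diestrus replicate 3 stood apart from their groups, as described with the values they touch. In bulk tissue, fewer cells of a type and less RNA per cell cannot be told apart.

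The upstream sequences of 4 members are shown first because these genes went up and down together across libraries only in part. RefSeq (build GRCm38.p6) gave a start site for Myl7, Myl4, Nppa and Nppb. The 250 bases before each start are printed 5′ to 3′ on the strand of the gene. Capitals mark 4 motifs looked for by their letters on both strands: GATAA (the core of GATA factor sites), AAGTG (the core of NKX2-5 sites), TATAAA (the TATA box) and the CArG box of serum response factor.
Myl7, chr11:5898783-5899032, minus strand: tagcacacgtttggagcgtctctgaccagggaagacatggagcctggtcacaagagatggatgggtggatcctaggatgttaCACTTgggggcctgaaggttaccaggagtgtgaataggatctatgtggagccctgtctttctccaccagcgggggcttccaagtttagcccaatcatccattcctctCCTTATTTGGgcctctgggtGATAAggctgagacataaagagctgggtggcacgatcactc
Myl4, chr11:104550413-104550662, plus strand: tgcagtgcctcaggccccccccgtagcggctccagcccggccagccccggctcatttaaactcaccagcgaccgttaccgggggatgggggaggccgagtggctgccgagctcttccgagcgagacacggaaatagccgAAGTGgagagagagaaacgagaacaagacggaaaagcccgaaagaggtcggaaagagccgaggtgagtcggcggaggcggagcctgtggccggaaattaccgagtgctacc
Nppa, chr4:148000472-148000721, plus strand: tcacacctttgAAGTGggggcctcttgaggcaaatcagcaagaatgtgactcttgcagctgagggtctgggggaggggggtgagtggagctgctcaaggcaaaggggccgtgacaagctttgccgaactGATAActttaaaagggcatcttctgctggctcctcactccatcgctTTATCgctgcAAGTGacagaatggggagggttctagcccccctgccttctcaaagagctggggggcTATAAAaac
Nppb, chr4:147985650-147985899, plus strand: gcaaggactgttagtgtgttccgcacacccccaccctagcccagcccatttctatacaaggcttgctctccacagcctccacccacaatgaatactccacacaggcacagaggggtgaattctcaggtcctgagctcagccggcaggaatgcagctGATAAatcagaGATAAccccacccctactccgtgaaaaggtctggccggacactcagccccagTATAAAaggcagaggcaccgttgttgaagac

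GATAA was found 2 times upstream of Nppa, 2 times upstream of Nppb and 1 time upstream of Myl7, and it was absent from the Myl4 window. Of 32817 RefSeq windows of this length, 22.6% held it. AAGTG was found 2 times upstream of Nppa and 1 time upstream of each of Myl7 and Myl4, against 40.7% of all windows. TATAAA stood upstream of Nppa and Nppb only, 9 and 31 bases before the start at its first base, and 12.4% of all windows held it. A CArG box was found upstream of Myl7 alone, 61 bases before the start at its first base, and 1.47% of all windows held one. None of the 4 motifs overlapped another in these windows. GC content was 52.8% for Myl7, 63.6% for Myl4, 54.4% for Nppa and 54.8% for Nppb, beside a median of 52.4%. Nppb and Nppa are neighbours on chromosome 4, with no other RefSeq gene start listed between them. A match of letters is a description and not a binding site, and these data held no measurement of binding.

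Over the 15 tissues, the members divided into a light chain and sarcolipin pattern and a natriuretic peptide pattern. Myl7, Myl4 and Sln had their highest median in aorta, at 849, 738 and 382 FPKM. Nppa and Nppb had theirs in heart, at 196 and 466 FPKM. By median, the next tissue after aorta was duodenum for Myl7, cerebrum for Myl4 and skeletal muscle for Sln, and no aorta library overlapped it. Heart ranked lower by median, but its estrus replicate 3 lay within the aorta range for all 3, at 974, 812 and 334 FPKM. No heart library overlapped the next tissue for Nppa or Nppb. In the 78 libraries outside heart and aorta, the members reached at most 26.7 FPKM for Myl7, 16.8 for Myl4, 26.9 for Sln, 3.32 for Nppa and 1.42 for Nppb. Of those libraries, 77 were below 1 FPKM for Nppb, 68 for Nppa, 68 for Sln, 58 for Myl7 and 21 for Myl4.

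**Figure D1:**
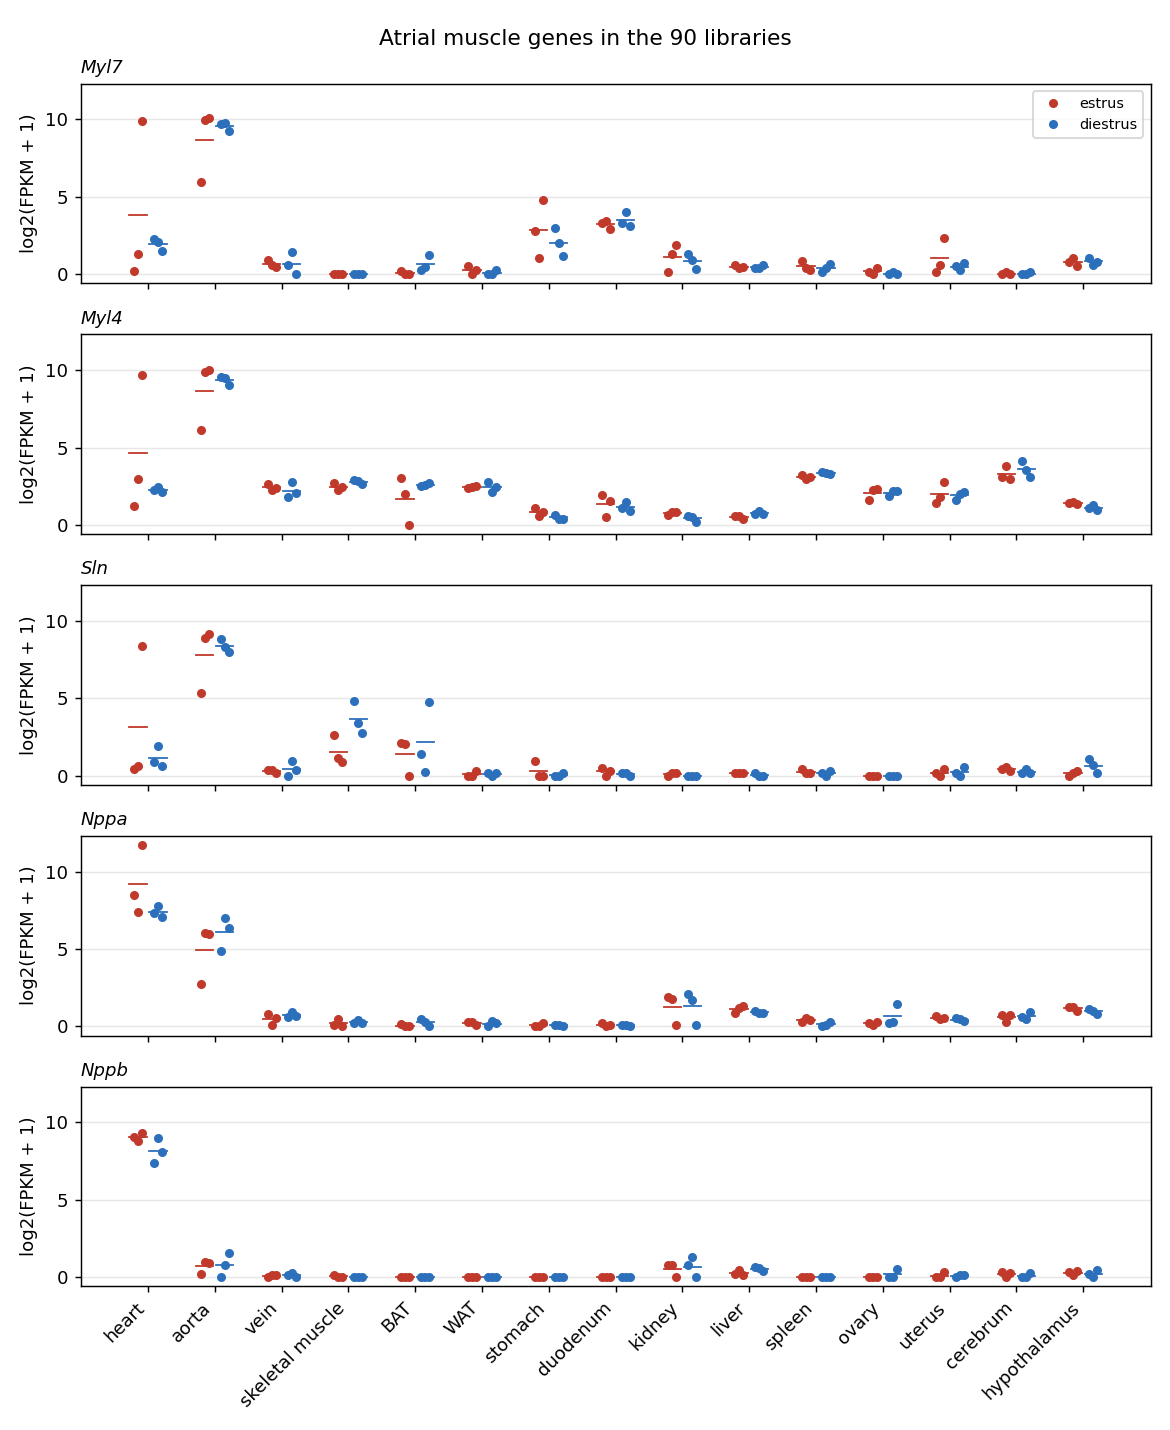
Level of each member in all 90 libraries, as log2(FPKM + 1) on the vertical axis, with tissues along the horizontal axis. Points are libraries (red, estrus; blue, diestrus) and short lines are the mean of 3 libraries. One estrus heart library sits near the aorta libraries for Myl7, Myl4 and Sln, while all 6 hearts are high in Nppb.

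Myl7, the atrial regulatory light chain, was near the floor in 5 of 6 hearts. Its level was 0.16, 1.53 and 974 FPKM in heart estrus replicates 1 to 3, and 3.83, 3.32 and 1.79 FPKM in diestrus replicates 1 to 3. Estrus replicate 3 was thus 254-fold above the highest of the other 5 hearts, which ranged from 0.16 to 3.83 FPKM. In aorta it was 61.4, 1014 and 1116 FPKM in estrus and 818, 879 and 607 FPKM in diestrus, so that 5 aortas were above 600 FPKM and estrus replicate 1 was far below them. The mean over all 6 hearts was 164 FPKM, and it was 2.13 FPKM without estrus replicate 3.

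Myl4, the atrial essential light chain, followed the same libraries. It was 1.33, 6.95 and 812 FPKM in heart estrus replicates 1 to 3 and 3.77, 4.46 and 3.37 FPKM in diestrus. In aorta it was 69.3, 942 and 1050 FPKM in estrus and 760, 715 and 516 FPKM in diestrus. Unlike Myl7, it also had a low level in many other tissues, described further on.

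Sln, the sarcolipin gene, was 0.35, 0.52 and 334 FPKM in heart estrus replicates 1 to 3 and 0.86, 2.72 and 0.55 FPKM in diestrus. Heart estrus replicate 3 was 607-fold above the median of the other 5. In aorta Sln was 39.4, 474 and 561 FPKM in estrus and 445, 319 and 253 FPKM in diestrus. The same heart library was high and the same aorta library was low as for the light chains.

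Nppa, the atrial natriuretic peptide gene, was present in every heart and highest in the same library. It was 358, 170 and 3389 FPKM in heart estrus replicates 1 to 3 and 160, 222 and 135 FPKM in diestrus. Estrus replicate 3 was 9.47-fold above the highest of the other 5 and 19.9-fold above their median. In aorta it was 5.75, 63.4 and 61.3 FPKM in estrus and 28.2, 130 and 82.0 FPKM in diestrus, below every heart.

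Nppb, the brain natriuretic peptide gene, departed from the other 4 members. It was 529, 435 and 626 FPKM in heart estrus replicates 1 to 3 and 163, 497 and 276 FPKM in diestrus, and the phases overlapped. Heart estrus replicate 3 was only 1.18-fold above the next heart. In aorta Nppb did not pass 2 FPKM in any of the 6 libraries, 5 of which held 607 to 1116 FPKM of Myl7. Nppb exceeded Nppa 1.02-fold to 2.55-fold in 5 hearts, and in estrus replicate 3 the ratio was 0.185.

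Other genes stood apart in heart estrus replicate 3 together with 4 of the 5 members. A gene was counted when its log2(FPKM + 1) in a library was at least 2 above the highest of the other 5 hearts. Of 11592 genes whose heart mean reached 1 FPKM, 22 met this in estrus replicate 3, or 0.19%, against 0 to 2 genes in each of the other 5 hearts. They included Myl7, Myl4, Sln and Nppa, whose values had chosen the members. They also included 4 genes of an atrial list of 20, which was chosen with earlier results of these data known. Of the 20, 15 had a heart mean that reached 1 FPKM. The 4 were Mybphl, a myosin-binding protein of atrial muscle (85.0 FPKM against 0.14 to 0.69), Sbk3 (53.3 against 0.2 to 3.87), Dkk3 (28.1 against 0.88 to 1.56) and Sbk2 (17.6 against 1.99 to 3.54). Fgf12 of the same list was 5.48 FPKM against at most 0.19, but its heart mean of 0.998 FPKM fell short of the minimum. Mybphl and others of the 22 reached that minimum only through estrus replicate 3, so these counts are descriptions and no test. The 3 atrial-list genes with the highest heart mean were the amidating enzyme Pam, the light chain Myl1 and Stard10. All 3 were highest in this library, at 383, 85.7 and 99.1 FPKM, against at most 178, 40.3 and 25.0 FPKM in the others. The summed level of the atrial list was 885 FPKM in estrus replicate 3 and 296 to 330 FPKM in the other hearts, while Bmp10, a secreted factor of right atrial muscle, stayed at 0.07 FPKM or below in all 6.

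Genes of stomach lining and pancreas also stood apart in that heart library. Pgc (the stomach protease precursor pepsinogen C) was 95.9 FPKM against at most 0.13, Tff1 (a mucosal peptide) 55.6 FPKM against at most 0.2, and Clps (pancreatic colipase) 54.5 FPKM against at most 0.46. Pla2g1b, Gkn2, Gkn1, Psca, Tff2, Sprr2a3, Sprr2a2 and Ppp1r1b were among the 22 genes as well. The median level of Pgc in the stomach libraries was 50066 FPKM. In the same stomach libraries the members were at most 26.7 FPKM for Myl7, 1.1 for Myl4, 0.93 for Sln and 0.15 for Nppa. Some genes of the heart's surface layer were high in the library too. The 5 genes of a mesothelium and epicardium list summed to 34.6 FPKM in estrus replicate 3 against 5.06 to 9.95 FPKM in the other hearts. Upk3b, a mesothelial membrane protein, was 13.9 FPKM against at most 2.83, and the keratin Krt19 was 9.81 FPKM against at most 1.96. Wt1, the gene of this list with the highest heart mean, was 3.85 FPKM against 2.87 to 5.65. The part of these genes in the members' values was not tested. The remaining genes that stood apart were Tmem163, Mlana and Lmntd1.

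Ventricular and shared heart muscle genes were present in all 6 hearts. Their sums were lowest in estrus replicate 3, at 18169 against 19560 to 22741 FPKM for 7 ventricular genes and 64864 against 66376 to 71142 FPKM for 25 shared genes. Myl2, the ventricular regulatory light chain, was 15736, 13219 and 12166 FPKM in estrus and 13999, 13626 and 14613 FPKM in diestrus. Myl3, the ventricular essential light chain, was 5845 FPKM in estrus replicate 3 and 6178 to 7244 FPKM in the others. For both light chains this library was the lowest of the 6. The ventricular homeobox gene Irx4 was 21.1 FPKM there against 18.0 to 24.2, Irx3 was 20.8 against 16.3 to 27.5, and Irx5 was 9.36 against 4.73 to 9.17. Hey2, a repressor of atrial genes, was 3.03 against 2.67 to 3.67, and the channel subunit Kcnip2 was 103 against 114 to 135. Of the 25 genes shared by atrial and ventricular muscle, the 3 highest were Mb (myoglobin, 15549 FPKM in estrus replicate 3), Actc1 (cardiac actin, 10483 FPKM) and Tpm1 (tropomyosin, 9022 FPKM). Their ranges over the other 5 hearts were 15538 to 17462, 10641 to 11707 and 10156 to 10939 FPKM. Of 10 stress-response genes, Acta1 (skeletal actin) was 650 FPKM in estrus replicate 3 against 91.2 to 272 FPKM, Ankrd1 935 against 375 to 662, and Ccn2 103 against 32.0 to 43.2. Lgals3 (7.63 against at most 4.45 FPKM) and, barely, Postn (10.45 against at most 10.38) were also above the other 5 hearts. The rest of that list, Rcan1, Myh7, Gdf15, Timp1 and Spp1, lay within the range of the other 5, with Rcan1 at 37.9 FPKM against 34.9 to 55.2.

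**Figure D2:**
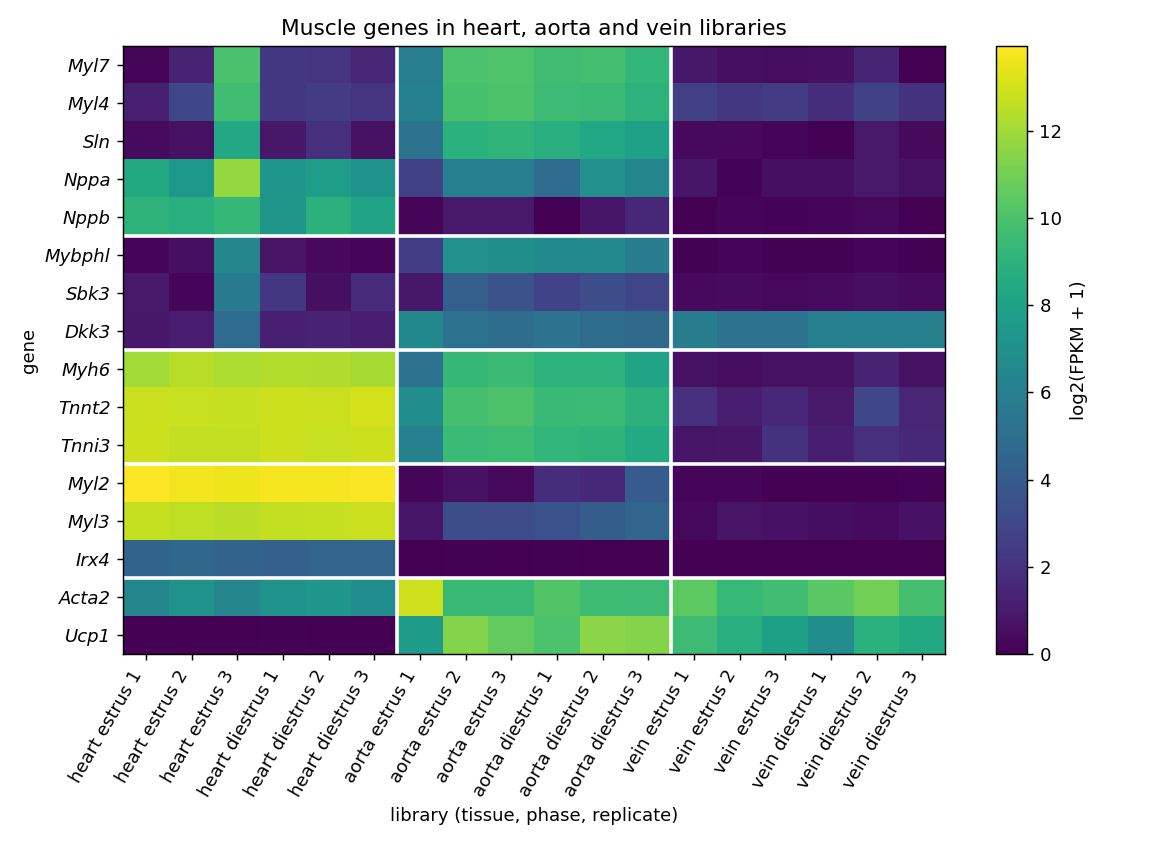
Heat map of log2(FPKM + 1) for 16 genes (rows: members, atrial-list genes, shared heart muscle genes, ventricular genes, and the smooth muscle gene Acta2 and brown fat gene Ucp1) in the 6 heart, 6 aorta and 6 vein libraries (columns). Heart estrus 3 is the only heart bright for Myl7, Myl4 and Sln, and the aortas are bright for these and dark for Myl2. The veins are dark for the cardiac rows except the atrial-list gene Dkk3 (35.4 to 67.4 FPKM).

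Between estrus and diestrus, no companion gene was called in heart. The test was limma on log2(FPKM + 1), over genes whose mean reached 1 FPKM, with Benjamini-Hochberg adjustment over all of them, called at a log2 fold change of at least 1 either way and an adjusted p of at most 0.05. Of 143 companion genes in 18 lists, 105 could be tested in heart and 0 were called, and 10 had an unadjusted p under 0.05. Over all 11592 genes 0 were called, a share of 0%, and 707 had an unadjusted p under 0.05. The phases did not overlap for 10 of the 105, or 9.52%, near the 11.7% of all genes. The lowest adjusted p among companions was 0.792. The median log2 fold change of the 15 tested atrial-list genes was 0.45 toward estrus, beside 0.02 over all genes. Without estrus replicate 3, the median of the 14 that remained testable was -0.14, beside 0.01 over all genes. The 25 shared genes had a median of -0.02 and the 7 ventricular genes 0.03. For the members themselves, the estrus mean was 325 ± 562 FPKM for Myl7, 273 ± 466 for Myl4, 112 ± 193 for Sln, 1306 ± 1806 for Nppa and 530 ± 95.6 for Nppb (SD, n = 3). The diestrus means were 2.98 ± 1.06, 3.87 ± 0.551, 1.38 ± 1.17, 172 ± 44.8 and 312 ± 170 FPKM in the same order (SD, n = 3). For the first 4 the estrus SD exceeded the estrus mean.

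The aorta libraries held genes of heart muscle, with atrial light chains far above the ventricular ones. Myh6, the heavy chain of fast heart myosin, was 37.3, 632 and 717 FPKM in estrus and 512, 513 and 277 FPKM in diestrus. The ventricular light chain gene Myl2 reached 15.5 FPKM, in diestrus replicate 3. Myl3 was 0.77 FPKM in estrus replicate 1 and 8.24 to 22.0 FPKM in the other 5. Of the other ventricular-list genes, Irx4 was at most 0.04 FPKM, Irx5 at most 1.49, Irx3 1.77 to 3.5 and Kcnip2 0.63 to 4. Hey2 was 4.37 to 36.1 FPKM, above every heart. Mybphl was 4.85 FPKM in estrus replicate 1 and 57.0 to 129 FPKM in the other 5. Smooth muscle genes were present in all 6 aortas, with a summed level of 1761 to 16027 FPKM for 6 genes. The same sum was 1507 to 4581 FPKM in the 6 veins, so it does not identify aorta. Brown and white fat genes were also present in the aortas, and 4 adipocyte genes summed to 3288 to 4963 FPKM in 5 of them.

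Aorta estrus replicate 1 was low in 4 members at once. Its level was 6.98% of the median of the other 5 aortas for Myl7, 9.12% for Myl4, 8.84% for Sln and 9.07% for Nppa. Of 12553 genes tested in aorta, 351 were at least 2 below the lowest of the other 5 on the log2 scale in this library, or 2.8%, a measure chosen after the values were seen. These included the 4 members and 10 of the 25 shared heart muscle genes, and in each of the other 5 aortas at most 1 gene met the same criterion. Others of the 25 went the other way. Nexn was 203 FPKM in this library against 23.9 to 39.1, Tpm1 1511 against 732 to 1189, and Hspb7 261 against 92.9 to 221. Cacna1c was 11.9 against 2.88 to 4.34, and Slc8a1 4.42 against 2.22 to 4.21. Over all genes, 203 were at least 2 above the highest of the other 5 in this library. Adipocyte genes summed to 386 FPKM in it against 3288 to 4963 FPKM. Smooth muscle genes summed to 16027 FPKM against 1761 to 2590 FPKM, with Acta2, the smooth muscle actin, at 7925 FPKM against 669 to 1152. The part of this makeup in the members' values was not tested. Aorta diestrus replicate 3 had 1047 FPKM of the airway gene Scgb1a1, against at most 3.16 in the others, and the highest fast skeletal fibre sum (283 FPKM). It was the lowest of the other 5 aortas in Myl7, Myl4 and Sln, and that part was not tested either.

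Among themselves, the light chains and sarcolipin kept nearly constant proportions wherever they were high. The FPKM ratio of Myl4 to Myl7 was 0.813 to 1.13 over the 6 aortas and 0.834 in heart estrus replicate 3. Sln to Myl7 was 0.363 to 0.642 in aorta and 0.343 in the heart library, and Mybphl to Myl7 was 0.079 to 0.128 and 0.0873. The highest aorta was thus 1.39, 1.77 and 1.62 times the lowest for these 3 ratios, while Myl7 itself ranged from 61.4 to 1116 FPKM. Myh6 to Myl7 was 0.457 to 0.643 in aorta and 4.98 in the heart library, which also held 12.5 times as much Myl2 as Myl7. Nppa to Myl7 was 0.0344 to 0.148 in aorta and 3.48 in the heart library, and Myl2 to Myl7 spread most in aorta of the plotted ratios, from 0.00026 to 0.0255.

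**Figure D3:**
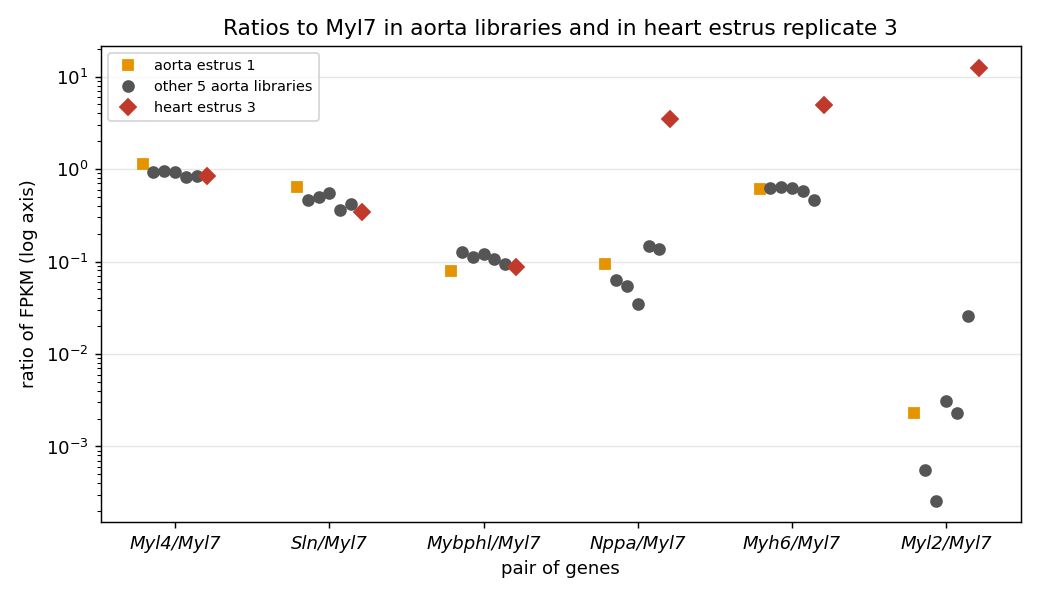
FPKM ratios to Myl7 (vertical log axis) for 6 genes (horizontal axis) in aorta estrus 1 (orange square), the other 5 aortas (grey) and heart estrus 3 (red diamond). Points are single libraries. Myl4, Sln and Mybphl fall together in both tissues, while Nppa, Myh6 and Myl2 are higher in heart.

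Vein carried almost none of the members. Myl7 was 0 to 1.73 FPKM over the 6 veins, Sln 0 to 0.97, Nppa 0.09 to 0.93 and Nppb 0 to 0.23, and Myl4 was 2.51 to 5.85. No vein overlapped any aorta for Myl7, Myl4, Sln or Nppa. Whether heart muscle genes that were no members also differed was tested over 13225 genes in the 6 veins and 6 aortas, with phase as a covariate. Of the 25 shared heart muscle genes, 0 were called higher in vein, where 9.12% of all genes were, and 22 were called lower in vein, where 1.84% of all genes were. That list was chosen with earlier results of these data known, and some of its genes passed the minimum mean only through aorta. Nkx2-5 was 0 FPKM in all 6 veins and Mybpc3 at most 0.13, so a call higher in vein was not possible for them. Of the 25, 24 had an unadjusted p under 0.05. The largest differences were -7.64 for Myh6 (SE 0.61, adjusted p = 1.69e-06), -7.42 for Tnnt2, cardiac troponin T (SE 0.51, adjusted p = 5.73e-07), -7.31 for Tnni3, cardiac troponin I (SE 0.53, adjusted p = 8.59e-07), and -7.17 for Mb (SE 0.62, adjusted p = 3.59e-06), all by limma as vein minus aorta on the log2 scale. The 3 that were not called were Nexn (-1.35, adjusted p = 0.0717), Slc8a1 (-0.70, adjusted p = 0.00952) and Cacna1c (-0.24, adjusted p = 0.579) in the same limma fit. The median of the 25 was -3.32, beside 0.11 over all genes, and this overall median was -0.01 when libraries were scaled to the same upper quartile. Of 16 tested atrial-list genes, 9 were called lower in vein and 1 higher, which was Nr2f2, a regulator of both atrial and vein identity. Of 5 tested ventricular genes, 3 were called lower in vein, Myl3, Myl2 and Kcnip2. Myl2 was close to the limit (adjusted p = 0.0499, limma), with 15.5 FPKM in aorta diestrus replicate 3 and 0.14 to 2.57 FPKM in the other aortas. The 22 shared genes were again 22 without aorta estrus replicate 1. The count over all genes called lower rose from 243 to 466 without that library. The vein libraries had a feature of their own, since all 4 neuron genes were called higher in vein, with Tubb3 at 7.14 (SE 0.31, adjusted p = 1.62e-08, limma) and Snap25 at 113 to 232 FPKM.

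The helpers of the natriuretic peptides were followed as a list of 10. Corin, the protease that cuts the Nppa product into the active hormone, was 49.7, 51.0 and 38.1 FPKM in heart estrus replicates 1 to 3 and 69.7, 44.9 and 54.8 FPKM in diestrus. Heart estrus replicate 3, highest in Nppa, was thus the lowest heart in Corin. In aorta Corin was 1.4 to 13.7 FPKM and in vein at most 0.25, and it was the 1 gene of 8 tested that was called, lower in vein by 2.84 (SE 0.38, adjusted p = 0.000123, limma). Furin, a general convertase that can cut the Nppb product, was 33.9 to 39.5 FPKM in the hearts, and its relative Pcsk6 was 21.7 to 28.9. Their differences between vein and aorta were -0.30 and -0.54, not called. Of the receptors, the guanylyl cyclase Npr1 was 8.01 to 10.6 FPKM in heart, 38.4 to 162 in aorta and 38.9 to 57.5 in vein. The clearance receptor Npr3 was 8.08 FPKM in heart estrus replicate 3 against 1.26 to 2.68 in the other hearts. None of the 8 that could be tested in heart were called between the phases, and 1, Pcsk6, had an unadjusted p under 0.05.

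Around sarcolipin, the calcium pumps and their other inhibitors were followed in heart, aorta and vein. Atp2a2, the cardiac pump, was 2888 to 3782 FPKM in the hearts, 163 to 559 in the aortas and 48.2 to 70.8 in the veins. Pln, phospholamban, was 2744 FPKM in heart estrus replicate 3, the lowest of the 6, and 2954 to 3188 FPKM in the other hearts. In aorta Pln was 8.54 to 232 FPKM, below Sln in every aorta. Atp2a1, the fast skeletal pump, and Mrln, myoregulin, stayed at or below 0.55 and 1.48 FPKM in heart, and Atp2a3 at 4.2 to 5.53. Of 4 tested genes of this list, 0 were called between phases in heart, with 1 at an unadjusted p under 0.05 (Mrln, log2 fold change 0.44, adjusted p = 0.792, limma). Atp2a2, Pln and Atp2a1 were called lower in vein than in aorta. Atp2a1 was 0.67 to 22.7 FPKM in the aortas and at most 0.35 in the veins. Its highest value was in aorta diestrus replicate 3, which also had the highest fast skeletal fibre sum, a sum that includes Atp2a1.

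Besides the muscles of the heart, Sln was found in skeletal muscle. It was 5.32, 1.17 and 0.87 FPKM in estrus and 26.9, 9.52 and 5.77 FPKM in diestrus, with no overlap between the phases. The log2 fold change was -2.09 (95% interval -3.54 to -0.64, SE 0.62), and it was not called, with an adjusted p of 0.134 by limma over the genes of the tissue. Without estrus replicate 1 it was -2.64 with an adjusted p of 0.0301, and was called. Slow-fibre genes moved with Sln from library to library. The 6 genes of that list, with Myl2, Myl3 and Tnnc1 as their highest in heart, summed to 904, 31.5 and 34.1 FPKM in estrus and 3111, 981 and 939 FPKM in diestrus. Myh7, the slow myosin heavy chain, was 69.4, 0.59 and 0.19 FPKM in estrus and 247, 73.7 and 55.7 FPKM in diestrus. The library with the most Sln, diestrus replicate 1, had the highest slow-fibre sum, and the pair of estrus libraries with the least Sln had the lowest. Fast-fibre genes summed to 69166 to 90638 FPKM, lowest in diestrus replicate 1. The part of the fibre makeup in the difference of Sln was not tested.

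**Figure D4:**
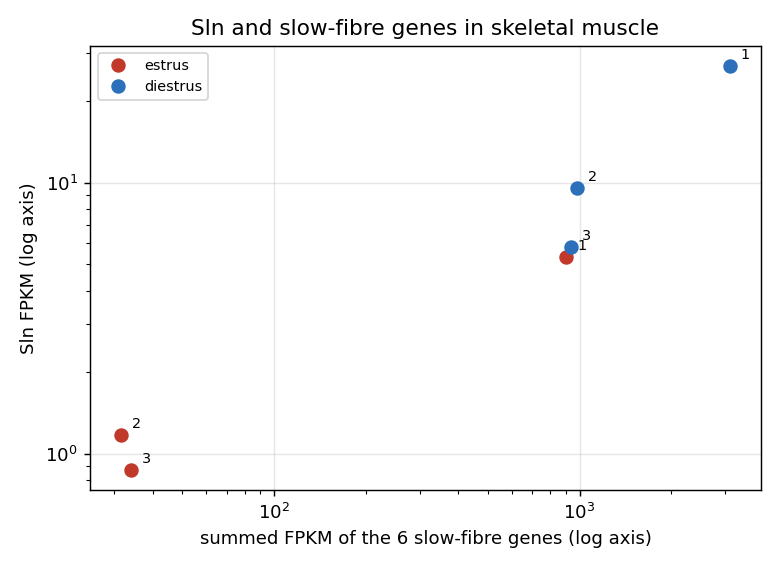
Sln (vertical log axis, FPKM) against the summed FPKM of 6 slow-fibre genes (horizontal log axis) in the 6 skeletal muscle libraries, each point a library numbered by its replicate. Estrus 2 and 3 are low in both, and diestrus 1 is high in both.

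BAT showed the same company. Its Sln was 3.29, 3.06 and 0 FPKM in estrus, the 0 in the shallow library, and 1.69, 0.21 and 26.5 FPKM in diestrus. The slow-fibre sum was highest, at 1445 FPKM, in the diestrus library with 26.5 FPKM of Sln, and lowest, at 5.17 FPKM, in the one with 0.21. Fast-fibre genes were 4593 and 28.1 FPKM in those 2 libraries. In skeletal muscle Myl7 was at 0 in all 6 libraries and Nppb in 5 of 6, so Sln was there without the atrial regulatory light chain.

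At lower levels, the light chains had tissues of their own. Myl7 was 6.68 to 15.5 FPKM in all 6 duodenum libraries and 1.12 to 26.7 FPKM in stomach, while Sln and Nppa stayed below 1 FPKM in both. In stomach the Myl7 values were 5.87, 1.12 and 26.7 FPKM in estrus and 6.84, 3.07 and 1.23 FPKM in diestrus. The smooth muscle sum there was 5334, 276 and 1924 FPKM in estrus and 1446, 626 and 619 FPKM in diestrus, highest in another library than Myl7. Myl4 was 6.71 to 16.8 FPKM in cerebrum and 6.91 to 9.78 in spleen, and these ranges overlapped. Next came skeletal muscle at 3.82 to 6.55 FPKM, not overlapping spleen, followed by BAT, WAT (white adipose tissue), vein, ovary and uterus with ranges that overlapped their neighbours. Nppa was 0.08 to 3.32 FPKM in kidney, 0.75 to 1.44 in hypothalamus and 0.79 to 1.46 in liver, in overlapping ranges.

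Outside heart, none of the members was called between the phases. Of 70 pairs of a member and one of the 14 other tissues, 22 passed the minimum mean of 1 FPKM: 11 for Myl4, 4 for Myl7, 4 for Nppa, 3 for Sln and 0 for Nppb. Of the 22, 0 were called by limma and 4 had an unadjusted p under 0.05. Over all genes of these tissues, 0.00115% of 173877 pairs were called. The phases did not overlap in 3 of the 22 pairs, or 13.6%, beside 15.2% of all pairs. Those 3 were Sln in skeletal muscle, Myl4 in hypothalamus (0.29, SE 0.12, adjusted p = 0.355, limma) and Myl4 in spleen (-0.24, SE 0.09, adjusted p = 0.93, limma). Myl4 in skeletal muscle was the remaining pair with a low unadjusted p, at -0.32 (SE 0.14, adjusted p = 0.235, limma). In aorta the differences were -0.88 for Myl7, -0.67 for Myl4, -0.58 for Sln and -1.18 for Nppa, with adjusted p of 0.933 to 0.936 by limma. Their 95% intervals were wide, from -3.62 to 1.87 for Myl7. Without aorta estrus replicate 1 they were 0.49, 0.60, 0.64 and -0.11, so 3 of the 4 turned to the other direction.

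**Figure D5:**
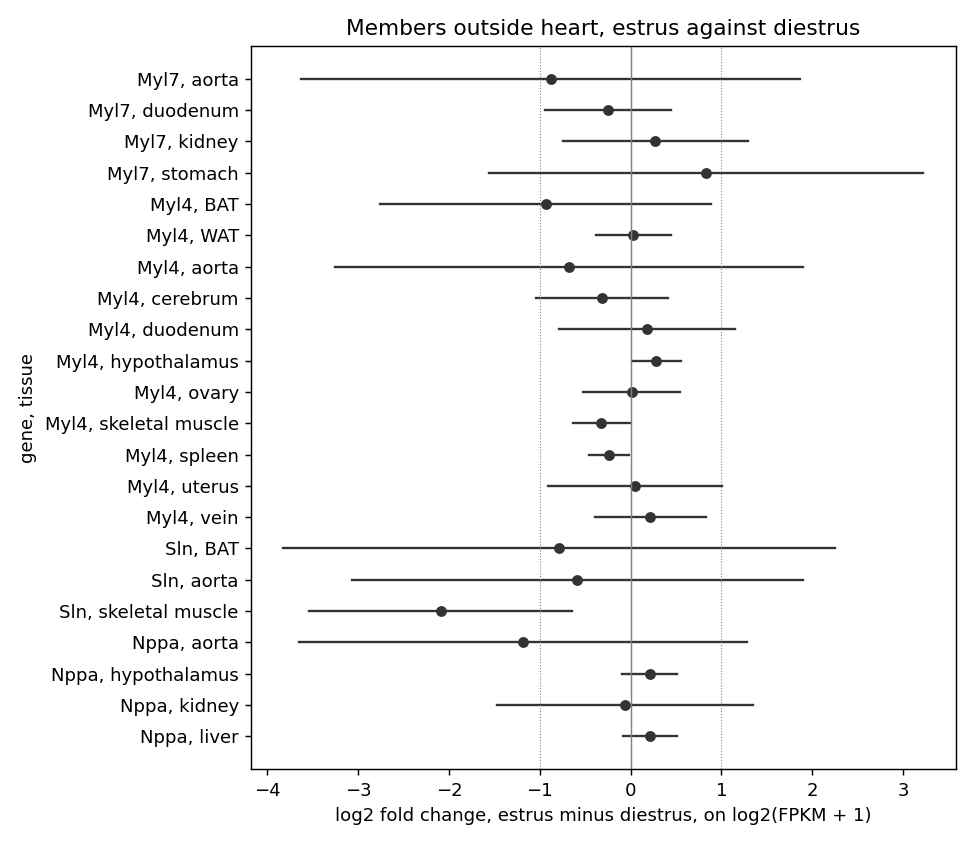
Log2 fold change of estrus minus diestrus (horizontal axis, on log2(FPKM + 1)) for the 22 pairs of member and tissue outside heart (vertical axis). Points are limma estimates, lines their 95% intervals, and dotted lines the limit of 1 either way. Sln in skeletal muscle is farthest from 0, and the aorta and BAT lines are among the widest.

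The genes most like each member over the 15 tissue means of log2(FPKM + 1) again separated the members. Pearson's r was compared over 17289 genes whose mean reached 1 FPKM in some tissue, and is a description over 15 points that share libraries. Mybphl came first for Myl7 (r = 0.922), Myl4 (0.907) and Sln (0.937). Sln, Scgb3a2, Olfr224 and Il17b followed for Myl7, and Sln, Lmntd1, Olfr224 and Scgb3a2 for Myl4. For Sln the others were Olfr224, Myl4, Scgb3a2 and Sbk3. Nppa was closest to genes of all heart muscle, Myh6 (0.993), Tnnt2 (0.973), Pln (0.967), Tnni3k (0.966) and Corin (0.963). Nppb was closest to Gm13871 (0.996), Gm7889 (0.988), the ventricular gene Irx4 (0.987), Lrrc10 (0.982) and Gm46240 (0.981). Over the other 13 tissues, r was 0.112 for Mybphl with Myl7, 0.409 with Myl4 and -0.248 with Sln, and 0.0894 for Irx4 with Nppb. It stayed higher for Lrrc10 with Nppb (0.851), Myh6 with Nppa (0.765) and Corin with Nppa (0.759). Between members, r ranged from 0.176 for Myl4 with Nppb to 0.891 for Myl4 with Sln. Over the 6 hearts, the genes closest to the mean of the members were Shc1 (0.998), Krt222 (0.997), Sprr2a2 (0.996), Dkk3 (0.996) and Tmem163 (0.993), where 1 library lies far from the rest.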

How the data were processed

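RNA of 15 mouse tissues in estrus and diestrus was sequenced on a BGISEQ-500, with 3 libraries per tissue and phase. The authors filtered reads with SOAPnuke, aligned them with Bowtie2 2.2.5 to GRCm38.p5 and deposited FPKM estimated with RSEM 1.2.8 (versions and build from the submitters' processing notes). The libraries came from a TruSeq RNA kit that does not mark strand, so overlapping genes on opposite strands cannot be told apart. Several alignments per read were kept and shared out by RSEM, which leaves near-identical genes uncertain. The study used a count-based test (DEGSeq), which FPKM cannot enter. Depth was approximated from FPKM steps of 1473 short genes, but only 52% to 72.8% of low values came out whole (within 0.1 reads), so counts were not recovered.

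Groups and replicate numbers came from the sample labels. Of 20414 genes, 20265 were named by Entrez identifier from RefSeq. Members and the 18 companion lists were chosen with earlier results of these data known. limma 3.58.1 (R 4.3.3, intensity trend) was run on log2(FPKM + 1), for genes whose mean FPKM in the fitted libraries reached 1, in each tissue and for vein against aorta with phase as a covariate. Such fold changes understate those of low genes. P-values measure the spread between libraries of 1 group, and 0 of 90 pairs of such libraries were identical. On simulated data with 200 genes changed, the same code was checked, and in heart 95.5% of those changed by 1.5 and 100% of those changed by 3 (log2, 11592 genes) were called. The shares at 1.5 were 95.5% in skeletal muscle, 84.5% for vein against aorta, 47% in duodenum, 46.5% in aorta, 45.5% in BAT and, the lowest, 16.5% in uterus. The changed genes were drawn at random from all tested genes, with normal noise. These shares therefore do not hold for genes with 1 outlying library, such as Mybphl in heart (SE 1.45). Summaries and plots were made in Python 3.11.15 (pandas 2.3.3, numpy 2.4.6, matplotlib 3.10.9).

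The text names the members, the 3 genes of each list highest in heart where that list is described (all genes for the ventricular and calcium pump lists), the called companions with the largest changes, the 5 genes most like each member, and genes that stood apart in a library. Ucp1, Myh7 and the other muscle, adipose and airway genes beyond these, and the second criterion for aorta, were chosen after their values were seen. Alternatives were another pseudocount (0.1), no filter, upper quartile scaling, no fold limit, a replicate block, 1 fit of all 90 libraries, and leaving out each library.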

Additional observations from a re-analysis of the deposited data

Results flagged for a closer look

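Myl4 is listed because its phases lay apart in opposite directions in 2 tissues. All 3 estrus libraries were above all 3 diestrus libraries in hypothalamus, and all 3 were below them in spleen, and the log2 fold changes lay 0.52 apart. This difference between tissues was not tested. Neither change was called (adjusted p of 0.355 and 0.93 by limma), and both were smaller than the limit of 1. Phases without overlap were found in 13.6% of the members' pairs and in 15.2% of all pairs, so this is no more than the share over all genes.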

How the results depend on the processing

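Under every other setting tried, 0 companion genes were called in heart and 0 shared heart muscle genes were called higher in vein, as in the main test, without each library and with the replicate block included. The number of shared genes called lower in vein was 22 or 23 (counted in this direction after seeing the data). For the shared genes that passed the minimum mean only through aorta, a call higher in vein was not possible. The count of members called outside heart was 0 in the main test and 1 under the replicate block. Without each replicate it was 0 to 1, the 1 being Sln in skeletal muscle without estrus replicate 1. There the log2 fold change of Sln was -2.64 to -1.52 over the libraries left out, with an adjusted p of 0.0269 under the block. Estrus and diestrus libraries came from different mice, and their same-numbered libraries did not all deviate together, with correlations of 0.109, 0.185 and 0.045 in skeletal muscle and -0.03, 0.03 and 0.02 in heart, so the block is not read as a pairing. Vein and aorta came from the same mice, but the labels do not say that a number marks a mouse. Their correlations were -0.01 to 0.451, and the block left the counts at 0 and 22. In aorta the fold changes ran from -1.60 to 0.49 for Myl7, -1.35 to 0.60 for Myl4 and -1.26 to 0.64 for Sln over the libraries left out, and turned positive without estrus replicate 1. The mean FPKM over hearts fell without estrus replicate 3 from 139 to 3.98 for Myl4, from 56.5 to 1 for Sln and from 739 to 209 for Nppa, and for Nppb it was 380 to 472 over the libraries left out. In simulated data, 46.5% of changes of 1.5 (log2) were called in aorta and 45.5% in BAT, so smaller changes could be missed there.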
